A study of Mus musculus with 38 samples.

Results

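In mitotic mouse embryonic stem cells, the DNA-binding domain (DBD) of heat shock factor 2 was compared with the full-length protein at the binding sites of the endogenous factor. The authors called these sites for HSF2 in cells that make it from its own gene, and measured both constructs over them. A site was used where the mitotic signals of both constructs were above 0, and an interval listed again was counted once. This kept 2134 of 2135 distinct sites, from 2141 listed intervals. The site left out, on chromosome 4 from 154576752 to 154577696, had a DBD signal of 0 and a full-length signal of 0.198.

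The cells were JM8 embryonic stem cells in which Hsf2 had been deleted with CRISPR guides across the locus, so that the tagged protein was the source of HSF2. Halo-HSF2 is the full-length protein, and Halo-H2DBD is the DBD with a nuclear localization signal. Both carry the HaloTag, an HA epitope and a Flag tag, were integrated with PiggyBac, selected with G418 and overexpressed, and the host is a clonal knockout line. Mitotic cells were collected by shake-off after nocodazole at 50 ng/ml for 6 h, and asynchronous cells were untreated. CUT&Tag with anti-HA directed a Tn5 transposase to each construct, and 2 libraries were made per construct and phase. The values are coverage scaled to Drosophila cells added to each sample, as a mean over each site and averaged over the 2 libraries by the authors. Each construct therefore has 1 mitotic value per site and no replicate values. These values carry no read totals, so the counts behind a site are not known from them, and no difference could be set against a spread between libraries. No site lies over Hsf2 itself (chromosome 10, 57486396 to 57513135), and the nearest is 709884 bp away, so the deletion could not be checked in these values.

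HSF2 belongs to the heat shock factors, which bind heat shock elements, arrays of the short unit GAA and its inverse TTC. Their DBD is a winged helix that contacts a single unit, and the adjoining heptad repeats, which the DBD construct lacks, join full-length proteins into trimers that cover several units at once. Chaperone and co-chaperone genes are the best known targets of the family, and HSF2 is also studied in development and in marking genes through mitosis.

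Neither binding at an array itself nor the joining of proteins into trimers was measured. The sequences printed below are arrays of 4 or 5 alternating units, among the longest runs found in the sites. They were read from the GRCm38 genome on the plus strand, 5′ to 3′, with the GAA and TTC units in capitals and 20 bases on each side, apart from Chordc1, whose array lies in an exon and is shown alone. The Etl4 intron site (chr2:20563574-20563631) is shown because it had the lowest ratio of DBD to full length of all sites. The Chordc1 array (chr9:18292263-18292285) holds 5 units and favoured the full-length protein. The array in Tbc1d17 (chr7:44846224-44846286) holds 5 units and had the highest DBD signal of the arrays. The array in Hspd1 (chr1:55088039-55088096), beside the start it shares with Hspe1, is the one with the highest endogenous HSF2 signal. The array upstream of Hspb8 (chr5:116433317-116433374) had the highest ratio among the sites with 4 or more units.

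Etl4 intron: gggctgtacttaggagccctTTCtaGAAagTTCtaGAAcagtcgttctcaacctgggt
Chordc1: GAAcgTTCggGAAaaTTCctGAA
Tbc1d17: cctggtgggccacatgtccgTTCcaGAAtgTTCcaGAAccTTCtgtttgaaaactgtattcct
Hspd1 and Hspe1: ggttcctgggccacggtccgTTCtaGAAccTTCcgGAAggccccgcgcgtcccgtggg
Hspb8 upstream: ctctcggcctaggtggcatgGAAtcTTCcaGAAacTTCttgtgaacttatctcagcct

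For contrast, 2 promoters without any run of 3 units stand for the gene starts with opposite ratios. They are the 250 bases before the RefSeq start in GRCm38.p6, on the plus strand, which is the strand of both genes. Tsc1 (chr2:28640983-28641232) had the highest ratio of the coding starts at or above the median level and holds none of the motifs searched. Cdc25a (chr9:109875329-109875578) had a low ratio, and its capitals mark CCAAT, here as its inverse ATTGG, and GGGCGG.

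Tsc1 promoter: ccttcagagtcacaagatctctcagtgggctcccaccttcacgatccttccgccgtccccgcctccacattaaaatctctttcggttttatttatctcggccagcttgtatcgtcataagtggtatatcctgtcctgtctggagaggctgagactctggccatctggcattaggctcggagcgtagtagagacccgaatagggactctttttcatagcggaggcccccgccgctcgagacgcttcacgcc
Cdc25a promoter: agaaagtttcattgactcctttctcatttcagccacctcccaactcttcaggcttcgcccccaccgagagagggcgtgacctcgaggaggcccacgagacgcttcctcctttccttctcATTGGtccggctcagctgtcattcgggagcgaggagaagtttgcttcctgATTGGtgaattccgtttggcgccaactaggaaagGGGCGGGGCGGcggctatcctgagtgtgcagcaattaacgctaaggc

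Across the 2134 sites, the mitotic DBD signal had a median of 1.82 (quartiles 1.22 and 2.69) and the mitotic full-length signal a median of 2.02 (quartiles 1.41 and 2.96). The log2 of DBD over full length, called the ratio below, had a median of −0.18 (95% order-statistic interval over sites, −0.19 to −0.15), which is a DBD signal 0.885 times the full-length signal. It was below 0 at 1434 sites, or 67.2% (Wilson 95% interval 65.2% to 69.2%). The middle of the distribution was narrow, with quartiles at −0.46 and 0.10, while the extremes ran from −5.07 to 3.63. These intervals describe the sites in the averaged tracks and cover neither counting error nor culture. A scaling error of a whole track would move every site by the same amount, so sites are described below relative to the median site. An error in the scaling of 1 of the 2 averaged libraries could move sites unequally, which this centring does not remove.

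The full-length protein was also read with anti-HSF2, in separate libraries. Against that signal the median ratio of the DBD was −0.43. The size of the median thus differed between these sets of full-length libraries, and the cause was not tested. The sets differ in antibody and in construct, which the paper names HA-tagged Halo-HSF2 for anti-HA and Halo-HSF2 for anti-HSF2. Antibody and construct therefore cannot be told apart wherever the sets are compared below. The anti-HA control was not analysed here, and no background was taken off either construct.

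Few sites departed far from the median site. At 53 sites (2.48%) the ratio was at least 2-fold above it and at 64 sites (3.00%) at least 2-fold below it. Counted from a ratio of 1 in place of the median site, 31 sites were at least 2-fold above and 102 at least 2-fold below. Of the 117 sites past 2-fold from the median site, 92 had a mean of both signals below its median of 1.93, so most large ratios came from weak sites. Among the 1067 sites at or above that median, 14 were 2-fold above and 11 were 2-fold below, and the SD of the ratio was 0.39 against 0.54 over all sites. The interquartile range fell from 0.80 in the quartile of weakest sites to 0.56, 0.54 and 0.40 in the next quartiles.

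**Figure D1:**
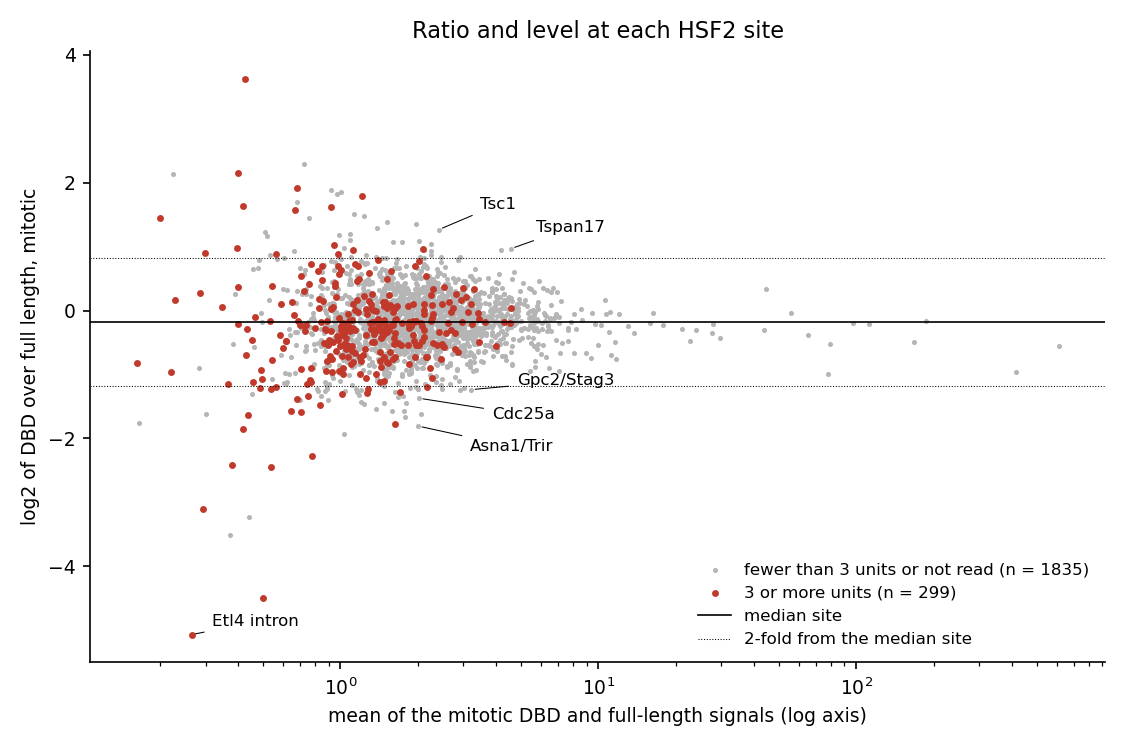
Each point is a site, with the mean of the mitotic DBD and full-length signals on a log axis and the log2 of DBD over full length on the vertical axis. Sites with a run of 3 or more heat shock units are red and lie mostly at low levels, where the ratio spreads most.

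By anti-HA, the order of the sites was largely shared, and less so against the full-length signal by anti-HSF2. With anti-HSF2, r was 0.638 and rho 0.558 over 2133 sites. The log2 mitotic levels of the DBD and the full-length protein by anti-HA had a Pearson r of 0.867 and a Spearman rho of 0.850. These cover 2134 sites, which share their intervals, their base composition and the host cells. The shared order was not particular to the mitotic pair. By anti-HA, r was 0.846 for mitotic DBD with asynchronous full length and 0.858 for mitotic full length with asynchronous DBD. Against endogenous mitotic HSF2, r was only 0.368 for the mitotic DBD and 0.391 for the mitotic full-length protein. Of the 100 strongest sites of each construct, 76 were the same. For comparison, 80 of 100 were shared in asynchronous cells, and 62 sites were among the strongest 100 of both constructs in both phases. Of the 100 strongest DBD sites, 35 were also among the strongest 100 of endogenous mitotic HSF2, and for the full-length protein 32 were.

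The 5 strongest sites were the same, in the same order, for both constructs. They were narrow intervals of 297 to 460 bp, and none is near the start of a coding gene by the 1 kb rule used here. The strongest, on chromosome 10 from 85025974 to 85026270, had a DBD signal of 493 and a full-length signal of 725, a ratio of −0.56. The site on chromosome 5 from 60042719 to 60043085 had 282 and 551, a ratio of −0.97. The third, over the gene model Gm10801 on chromosome 2 from 98663689 to 98664090, had 176 and 197 in mitotic cells but 509 and 122 in asynchronous cells, so its ratio was −0.16 in mitosis and 2.06 in asynchronous cells. The fourth and the fifth, in Kctd16 and in Aida, had ratios of −0.50 and −0.21. The Aida site held a run of 2 alternating units and the others held none. Repeats made up 65.4% of the Gm10801 site and 7.41% to 18.3% of the others, with a median of 12.4% over all sites. The strongest 1% of sites, 22 in number, held 28.6% of the summed DBD signal and 33.6% of the summed full-length signal, so sums and linear values over sites rest on them.

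Among coding starts at or above the median level, Tsc1 favoured the DBD most. Tsc1 encodes a subunit of the complex that restrains mTORC1, and its site on chromosome 2 from 28640056 to 28642006 covers the start. The DBD signal was 3.39 and the full-length signal 1.41, a ratio of 1.26, and the site ranked 292 of 2134 for the DBD and 1598 for the full-length protein. In asynchronous cells the signals were 2.26 and 2.22. By anti-HSF2, the mitotic full-length signal at this site was 9.17, at percentile 97.0, so the low rank of the full-length protein was not seen in those libraries.

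Ppp1r15b, whose product directs a phosphatase to the translation factor eIF2, had 2.74 for the DBD and 1.29 for the full-length protein, a ratio of 1.09. Golim4, a Golgi membrane protein, had 3.02 and 1.47, a ratio of 1.04. Both also had low anti-HSF2 signals, 1.22 and 1.01, at percentiles 15.2 and 11.3. Tspan17, a tetraspanin, and Smg1, a kinase of nonsense-mediated decay, were the strongest of this group, with DBD signals of 6.05 and 5.53 against 3.10 and 2.86, ratios of 0.97 and 0.95. The others were Mga, Tmtc4, the shared start of Cib1 and Gdpgp1, Psph and Tesk1, down to a ratio of 0.84. As at Tsc1, the full-length signals of Mga and of Cib1 and Gdpgp1 were high by anti-HSF2. They were at percentiles 83.7 and 86.5, against 25.5 and 32.3 by anti-HA. Psph, Tspan17, Tmtc4, Tesk1 and Smg1 were at percentiles 8.11, 26.9, 27.7, 42.3 and 60.7 by anti-HSF2.

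At or above the median level, the coding starts that favoured the full-length protein most began with a site on chromosome 8 from 85023502 to 85026063 beside Asna1, an ATPase that delivers tail-anchored proteins to membranes, and Trir. Its DBD signal was 0.889 and its full-length signal 3.11, a ratio of −1.81, and the ranks were 1868 and 472. Mapre2, which encodes a microtubule end-binding protein, had 1.01 and 3.10, a ratio of −1.62. Cdc25a, the phosphatase that activates cyclin-dependent kinases, had 1.12 and 2.90, a ratio of −1.37. The shared start of Gpc2 and Stag3 had the highest full-length signal of the group, 4.51 against 1.91. Ung, Scap, Palm3, Osbpl3, Cnpy3 and the shared start of Gnl3 and Pbrm1 followed, with ratios from −1.23 to −1.15. By anti-HSF2, the full-length signals at Osbpl3 and Palm3 were 1.17 and 1.71, at percentiles 14.2 and 28.7. By anti-HA these percentiles were 70.7 and 75.9, so their high full-length signals were not seen in the anti-HSF2 libraries. The rest of this group were at percentiles from 56.4 at Cdc25a to 88.0 at Gnl3 and Pbrm1 by anti-HSF2.

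Away from coding starts, and again among sites at or above the median level, the DBD was favoured most at a site in Gabbr2 on chromosome 4 from 46663790 to 46666147, with 2.82 against 1.10, a ratio of 1.36. A site over Gm30177 and part of Nrn1 on chromosome 13, one on chromosome 4, 6022 bp from the start of Spen, and one on chromosome 18 had ratios of 0.83, 0.78 and 0.95. Under the same limit, the full-length protein was favoured most over Mir6240 on chromosome 5 from 114851213 to 114852436, with 1.72 against 4.08, a ratio of −1.24, and then at sites on chromosome 14, in Tbc1d15 and over Gm12939, with ratios from −1.22 to −1.14. All 4 of these sites overlapped an HSF1 site, and 1 of the 4 that favoured the DBD did. At or above the median level, 48.4% of sites did. Of the named coding starts, 3 of 10 that favoured the DBD and 2 of 10 that favoured the full-length protein did. By anti-HSF2, the full-length signals at the Tbc1d15 and Gm12939 sites were at percentiles 33.7 and 24.7, against 89.9 and 74.6 by anti-HA. The Mir6240 and chromosome 14 sites were at 96.0 and 76.4. The site near Spen was at 75.9, against 28.8 by anti-HA, and the others that favoured the DBD were at 4.36 to 48.8.

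**Figure D2:**
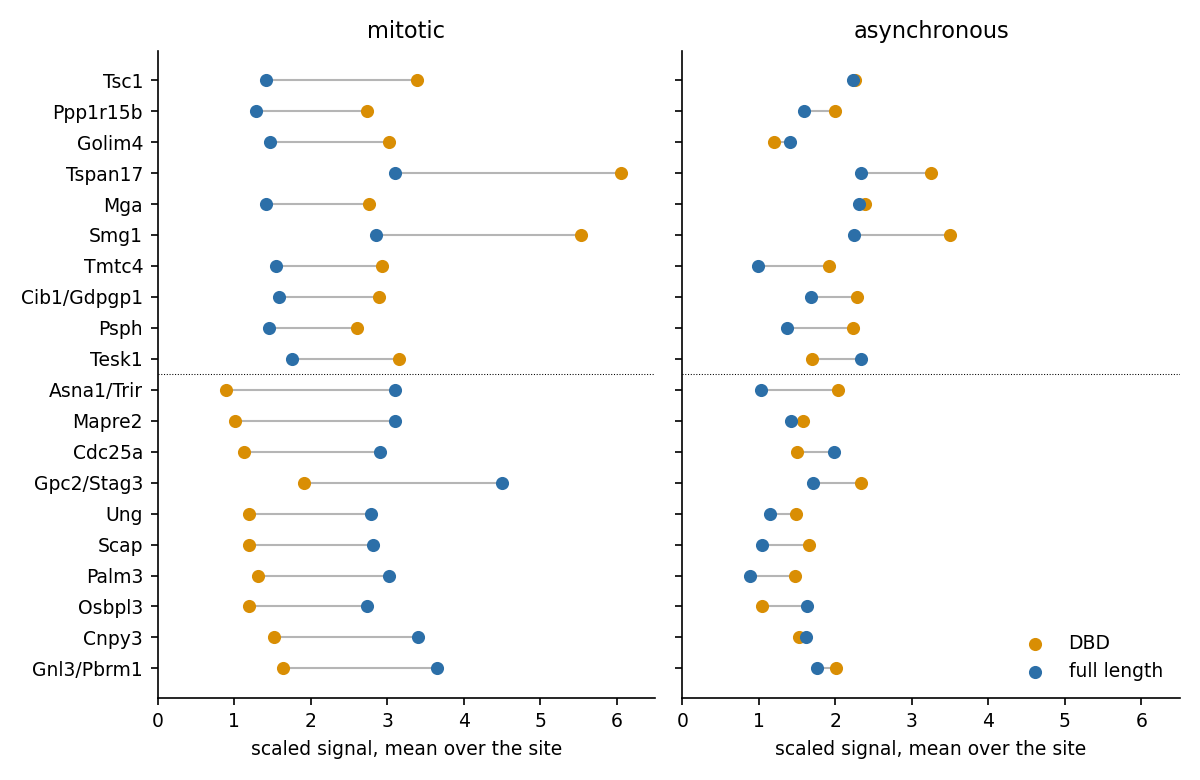
Scaled signal, as a mean over the site, of the DBD and of full-length HSF2 at the 10 coding starts with the highest and the 10 with the lowest mitotic ratio among sites at or above the median level, in mitotic and in asynchronous cells. Above the dotted line the mitotic DBD signal is the higher one, below it the lower one, and in asynchronous cells the order is mixed. The starts were picked on their mitotic ratio, so their spacing cannot be compared between the phases.

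The asynchronous libraries of the same constructs share no library with the mitotic ones. There the median ratio was 0.28 (interval 0.26 to 0.31) and 77.4% of sites were above 0, against 32.8% in mitosis. Relative to each phase's own median site, 1042 sites (48.8%) were on the same side in both phases. Over the 2134 sites, which are the same intervals in the same host, the ratios of the phases had a Pearson r of −0.024 and a Spearman rho of −0.021. At the 1067 sites at or above the median level, r was −0.023. Of the named coding starts, 6 of the 10 that favoured the DBD in mitosis and 5 of the 10 that favoured the full-length protein were on the same side in asynchronous cells. The measured ratio of a site in mitotic cells thus said little about its measured ratio in asynchronous cells. These values hold no replicates, so how well a site's ratio repeats within a phase was not tested. Noise in the ratios therefore cannot be told apart from a change of preference between the phases.

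Past 2-fold in both phases, the lists are short and were picked after their values were seen. At 4 of the 53 sites 2-fold above in mitosis the ratio was also 2-fold above in asynchronous cells (3.84% of all sites), and none of these is within 1 kb of a coding start. The nearest starts were those of Thbd at 1439 bp, Nr2f2 at 13358 bp, Col18a1 at 19662 bp and Cdh4 at 130913 bp. The last had a mitotic full-length signal of 15.0 by anti-HSF2 against 0.305 by anti-HA, so its weak full-length signal was not seen in the anti-HSF2 libraries. The site 19662 bp from Col18a1 had 1.39 against 0.451 in mitosis and 0.860 against 0.145 in asynchronous cells. At 4 of the 64 sites 2-fold below the same held (1.55% of all sites were 2-fold below in asynchronous cells), at the starts of Ggh and Gga2 and at sites 22972 bp from the start of Ptk2b and 306836 bp from that of Foxa2. Ggh, which encodes a folate hydrolase, had 0.441 against 1.23 in mitosis and 0.705 against 1.21 in asynchronous cells. All 8 are below the median level. The opposite pattern, 2-fold below in mitosis and 2-fold above in asynchronous cells, held at 11 of the 64 sites. Of all sites, 3.84% were 2-fold above in asynchronous cells. Among the 11 were the Etl4 intron and the starts of Dnph1 and Rnf227. The reverse held at 2 of the 53 sites, with 1.55% of all sites 2-fold below in asynchronous cells. The sites with opposite patterns are also all below the median level.

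Heat shock units were counted as the longest run of alternating GAA and TTC starting every 5 bases, in the GRCm38 sequence of each site, which could be read for 2130 sites. The ratio had a lower median the longer the run. Its median was −0.13 at 633 sites with no run, −0.18 at 1198 sites with 2 units, −0.26 at 276 sites with 3, −0.33 at 16 sites with 4 and −0.72 at 7 sites with 5. The last median has an interval of −2.28 to 0.43, so these 7 sites lie on both sides of the median site. That interval overlaps those at 3 units (−0.31 to −0.19) and 4 units (−0.81 to −0.17), which also overlap each other. Together, 299 sites with 3 or more units had a median of −0.27 (interval −0.32 to −0.21) against −0.16 at 1831 sites with fewer, and 118 of them, 39.5%, were above the median site, which splits all sites at 50.0%. At least 2-fold below were 22 of the 299 (7.36%, against 3.00% of all sites) and at least 2-fold above were 15 (5.02%, against 2.48%). In asynchronous cells the medians were 0.28, 0.27, 0.31, 0.58 and 0.72 in the same order of run lengths.

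Against the anti-HSF2 signal of the full-length protein in place of anti-HA, the sites with 3 or more units had a median that differed from that of all sites by −0.0024, compared with −0.099 by anti-HA. By anti-HA among sites at or above the median level, the difference was −0.041. The medians by run length were not compared by anti-HSF2, and the cause of the lower ratio by anti-HA was not tested.

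**Figure D3:**
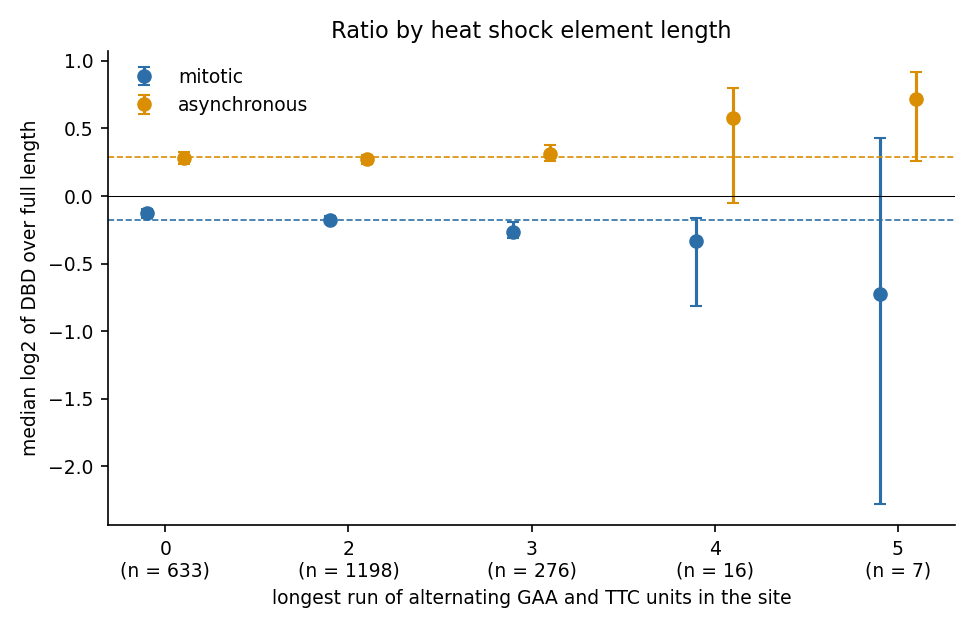
Median log2 of DBD over full length by the longest run of alternating units, in mitotic and in asynchronous cells, with 95% order-statistic intervals over sites; dashed lines are the medians of all sites. The mitotic medians fall with run length and the asynchronous ones do not, and the 5-unit class holds 7 sites.

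Wider sites hold more motifs by width alone, and weak sites have wider ratios, so the element was also compared within strata. Sites with 3 or more units had the lower median in 4 of 4 width quartiles, by 0.07 to 0.17. The same held in 4 of 4 quartiles of GC content, in 1 of them by 0.01, and in 3 of 4 quartiles of mean level. The exception was the strongest quartile, where 18 element sites had a median of −0.09 against −0.17 at the 514 other sites. Near coding starts the medians were −0.22 with the element and −0.14 without, and away from them −0.30 and −0.19.

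At the 23 sites with 4 or more units, 17 ratios were below 0 in mitosis (67.2% of all sites) and 15 below the median site, while in asynchronous cells 19 were above 0 (77.4% of all sites) and 16 above the median site of that phase. The full-length signal was higher in mitotic than in asynchronous cells at 19 of the 23, as at 86.3% of all sites, and the DBD signal was lower in mitotic cells at 15, with 41.4% of all sites. An HSF1 site overlapped 19 of them, with 40.6% of all sites. The DBD signals ran from 0.0153 to 3.30 and the full-length signals from 0.266 to 2.91, all of them modest beside the endogenous HSF2 signals of 5.00 to 96.6 at the same sites, which are on the scale of another experiment.

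The arrays printed above show how sites with alike sequence differed. The Etl4 intron site (chromosome 2, 20562903 to 20563803) had a DBD signal of 0.0153 and a full-length signal of 0.514, a ratio of −5.07, and 0.716 against 0.181 in asynchronous cells, a ratio of 1.99. Both mitotic values are near the bottom of their columns, at percentiles 0 and 2.06. Chordc1, an HSP90 co-chaperone, had 0.690 against 1.16, a ratio of −0.75, and 1.13 against 0.600 in asynchronous cells.

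The other arrays printed above ran from near even to a high ratio. The Hspd1 and Hspe1 site, at the shared start of the mitochondrial chaperonin genes, had 1.29 for the DBD and 1.52 for the full-length protein, a ratio of −0.24. The site with the Tbc1d17 array, which also covers the start of Akt1s1, had 3.30 and 2.84, a ratio of 0.22. The array upstream of Hspb8, a small heat shock protein gene, lies between genes, 10473 bp from the Hspb8 start. The site that holds this array had 1.88 and 0.541, a ratio of 1.80. So 4 units at Etl4 and 4 units at Hspb8 lay at opposite ends of the distribution, both with weak full-length signals. The highest ratio of all sites, 3.63 on chromosome 5 from 126910031 to 126910898, also had 3 units and signals of 0.788 and 0.0638, the latter the lowest full-length value of all.

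The sites were called on endogenous HSF2 and not on the constructs, so an element site that is weak in the constructs is listed because its endogenous signal passed, and the percentiles below describe the list without showing how elements act. Sites with 3 or more units had a median percentile of 21.3 in the DBD signal and 22.7 in the full-length signal, and 18.4 by anti-HSF2, while the same sites were at 71.7 in endogenous mitotic HSF2. Sites with fewer units were at 54.8, 54.2, 54.9 and 46.4. None of the 100 strongest DBD sites and none of the 100 strongest full-length sites had 3 or more units, whereas 30 of the 100 strongest endogenous sites and 14.0% of all sites did. Within the narrowest quartile of sites, 85 element sites had percentiles of 9.75 for the DBD, 12.6 for the full-length protein and 82.9 for endogenous HSF2.

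**Figure D4:**
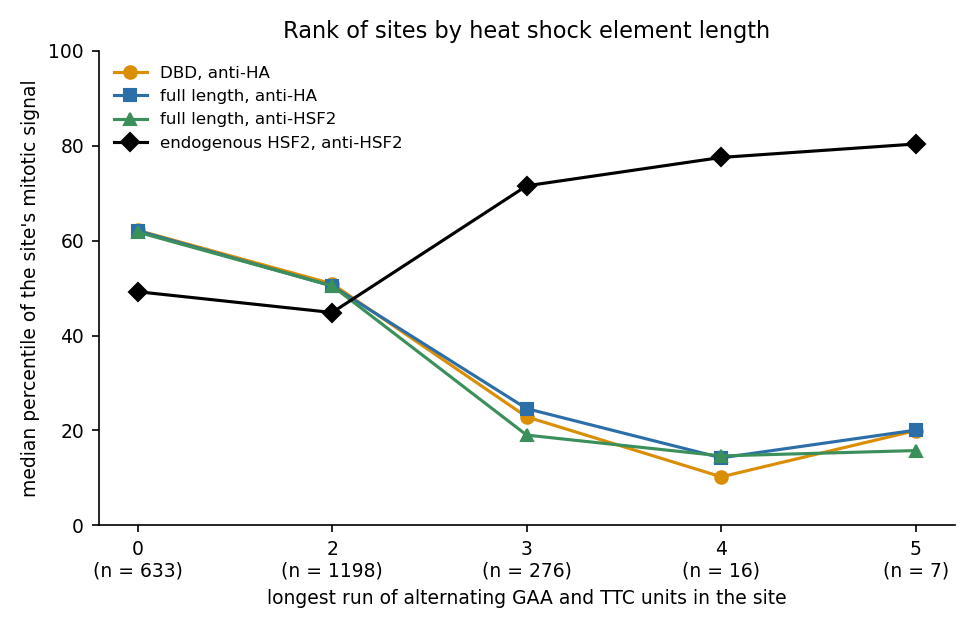
Median percentile of the mitotic signal among all sites, by the longest run of alternating units, for the DBD and full-length HSF2 by anti-HA, full-length HSF2 by anti-HSF2 and endogenous HSF2. The 3 construct signals fall together, to between 10.2 and 14.6 at 4 units and 15.8 and 20.1 at 5 units, and the endogenous signal is at 49.2 with no run, 44.8 at 2 units and 80.4 at 5 units.

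Chaperone genes, the classical targets, did not move as a block. A site was given to a gene when it lay within 1 kb of the start of one of its transcripts. Of 6 sites of HSP70 and HSP110 genes, which refold proteins with ATP, 4 were above the median site (against 50.0% of all sites), with a median ratio of 0.12. That is 0.30 above the median of all sites. It was 0.71 above by anti-HSF2 and 0.18 above with 1 added to both signals. Among sites at or above the median level it was 0.49 above, but Hsph1 alone is left there. Hsph1 had 2.55 for the DBD and 2.01 for the full-length protein, a ratio of 0.34, Hspa8 had 1.61 and 2.25, a ratio of −0.48, and Hspa4l and Hspa9 had ratios of −0.40 and 0.14. The weakest were Hspa1b and the shared site of Hspa1a and Hspa1l, with ratios of 0.21 and 0.10.

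Of 8 sites of HSP90 genes and co-chaperones, 3 were above the median site, and their median was −0.23, with −0.18 over all sites. Their median was 0.50 above that of all sites by anti-HSF2. Among sites at or above the median level, where Ahsa2, Hsp90ab1 and Ptges3 are left, it was 0.03 above. Ahsa2, which stimulates the HSP90 ATPase, was strong and near even, with 5.17 and 5.61. Hsp90ab1 had 2.37 and 3.18, a ratio of −0.42, Ptges3 had 2.29 and 2.09, and Stip1, which links HSP70 to HSP90, had 1.66 and 2.17, a ratio of −0.38. Hsp90ab1 and Stip1 rank 12 and 5 of all sites in endogenous mitotic HSF2, and 701 and 1192 for the DBD.

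HSP40, BAG and small heat shock protein genes had the lowest median of the lists as reported, −0.52 over 11 sites, with 4 above the median site. Its interval, −0.87 to 0.12, includes the median of all sites, as do those of the other chaperone lists. Hspbp1 had 3.30 and 5.40, a ratio of −0.71, Hspb11 and Dnajb1 had ratios of −0.04 and 0.01, and Dnajb11, a chaperone partner in the endoplasmic reticulum, had 1.83 and 3.34, a ratio of −0.87. The lowest was Dnaja1, at −0.89. This list's median was below that of all sites under each alternative run, by 0.14 to 0.24, but was not always the lowest. By anti-HSF2 proteasome and ubiquitin genes were at −0.17 from all sites, against −0.16 for this list. At or above the median level splicing genes were at −0.32, against −0.14. In asynchronous cells its median was 0.59, above the 0.28 of all sites.

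Chaperonin sites, 6 in number, had a median of 0.00 and 4 above the median site. Their median was 0.18 above that of all sites, 0.74 above by anti-HSF2 and 0.11 above with 1 added to both signals. Among sites at or above the median level it was 0.65 above, but Cct7 alone is left there. Cct7, a subunit of the cytosolic ring, had 2.30 and 1.62, a ratio of 0.51, and Cct3 and Tcp1 had ratios of −0.14 and 0.15. Cct4 had 0.583 and 1.44, a ratio of −1.30. It was the only site of the 4 chaperone lists past 2-fold from the median site. Of all sites, 2.48% were 2-fold above and 3.00% 2-fold below.

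Among the other lists, cell division genes and splicing genes had the lowest medians, with intervals that include the median of all sites. Of 13 cell division sites, 3 were above the median site, with a median of −0.44 (interval −0.83 to 0.06), from Cdc25a at −1.37 to Ccne1 at 0.68. Its cyclin sites, singled out after their values were seen, went both ways. Ccnd3 had 0.740 and 1.81, Ccnd1 1.10 and 1.73, and Ccnd2 0.637 and 1.11, while Ccne1 and Ccne2 had the higher DBD signals, with ratios of 0.68 and 0.16. Of 19 spliceosome and RNA-binding sites, 5 were above the median site, with a median of −0.39 (interval −0.58 to −0.06), from Hnrnpr at −0.76 to Lsm12 at 0.55. Hnrnpa1, the strongest of them, had 6.25 and 9.90, a ratio of −0.66. Both medians were below that of all sites under every alternative run, though by anti-HSF2 by no more than 0.045 and 0.012.

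Of 10 sites of pluripotency regulators, 2 were above the median site, and the median was −0.36, though 0.02 above that of all sites by anti-HSF2. Klf4 had 0.714 and 1.68, a ratio of −1.23, and Pou5f1 had 1.23 and 1.84, a ratio of −0.58. Otx2 gave both extremes of the list. Its start has neighbouring sites 364 bp apart on chromosome 14, from 48664888 to 48665455 and from 48665820 to 48667204. The first had 0.706 for the DBD and 2.04 for the full-length protein, a ratio of −1.53, and the second 1.82 and 0.651, a ratio of 1.48.

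The remaining lists, apart from DNA replication, had medians within 0.13 of the median site. DNA replication genes had a median of 0.02 over 8 sites, from Rpa1 at −0.90 to Pole2 at 1.18, and this median was 0.20 above all sites and 0.057 above by anti-HSF2. Replication-dependent histone genes had −0.05 over 17 sites with 11 above the median site, from Hist1h3e at −0.93 to Hist2h4 at 0.49, and these sites sit in a few clusters; this list's median was 0.13 above that of all sites and 0.33 above by anti-HSF2. Oxidative phosphorylation genes had −0.09 over 14 sites, from Ndufs7 at −0.90 to Ndufa6 at 0.46, and this median was 0.087 above all sites and 0.18 above by anti-HSF2. Translation factors had −0.08 over 9, from Eif4g1 at −1.13 to Eif3a at 0.61, and proteasome and ubiquitin genes −0.10 over 7, from Psmd7 at −0.64 to Ube2b at 0.14. These last 2 lists were below all sites by anti-HSF2 and above them otherwise. Cytosolic ribosomal protein genes had −0.17 over 17 sites, from Rpl7 at −0.61 to Rpl6 at 0.95, and changed side under the alternatives, never by more than −0.046 from all sites. Small nuclear and nucleolar RNA genes had −0.21 over 46 sites, from −1.05 at a site on chromosome 9 to 0.95 at Rpl6, and lay 0.29 above all sites by anti-HSF2. Some sites count for 2 lists, such as Rpl6, whose site also covers a small RNA gene.

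**Figure D5:**
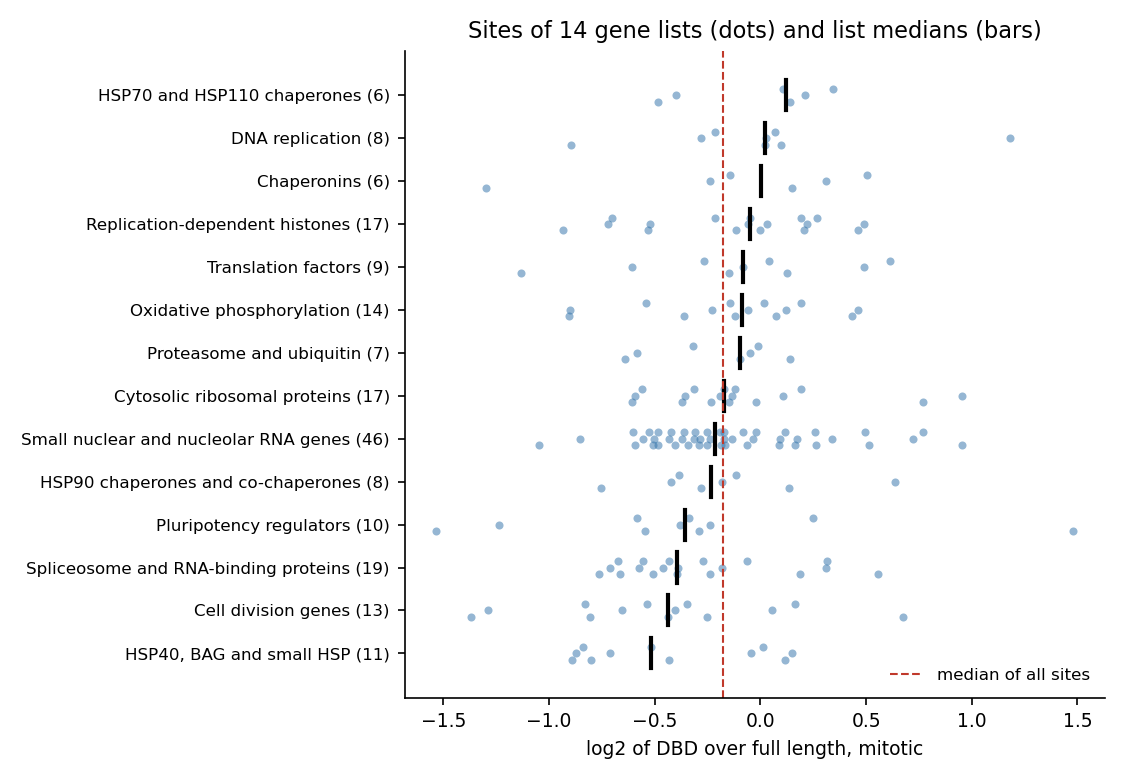
Each dot is the mitotic log2 of DBD over full length at a site near the start of a gene of the list, with the number of sites in parentheses; bars are list medians and the dashed line is the median of all sites. Every list spans the dashed line.

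Neighbouring sites did not share their ratio. Of 158 pairs of nearest neighbours within 10 kb, 86 (54.4%) lay on opposite sides of the median site, and the ratios of a pair had a Spearman rho of −0.14, with a median difference of 0.40. The Otx2 pair differed most, by 3.01. On chromosome 11, sites 428 bp apart, the first of them 6550 bp from the start of Hoxb3, had ratios of 1.10 and −0.63. The starts of Nbeal2 and Ccdc12, 820 bp apart by their sites, had −0.79 and 0.78. These pairs were chosen after their values were seen.

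Position and base composition went with small differences. The median was −0.15 at 1556 sites with a coding start within 1 kb and −0.23 at 578 sites without one, an order that reversed by anti-HSF2. It rose with GC content, from −0.23 in the lowest quartile to −0.13 in the highest, and with CpG observed over expected, from −0.22 to −0.13. It fell with the share of repeats, from −0.13 to −0.22. Sites overlapping an HSF1 site had −0.19 (867 sites) and sites overlapping a SOX2 site −0.16 (407 sites), and by anti-HSF2 these classes lay 0.22 and 0.25 above all sites. By chromosome the medians ran from −0.24 on chromosome 15 to −0.09 on chromosome 12, apart from chromosome Y, where 4 sites had −0.54. Over quartiles of the endogenous mitotic HSF2 signal, the medians stayed between −0.19 and −0.16.

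The 213 sites with the highest and the 213 with the lowest ratio, 10% of sites each, were compared in readouts that the ratio does not use. Their median endogenous mitotic HSF2 percentiles were 42.9 and 46.0, and their mitotic anti-HSF2 signals 1.89 and 1.80, against 2.44 over all sites. They overlapped HSF1 sites in 31.5% and 37.6% of cases, against 40.6% of all sites, and SOX2 sites in 22.5% and 17.8%, against 19.1%. A coding start was in 62.9% and 61.5%, against 72.9%. Runs of 3 or more units were in 17.4% of the highest and 25.4% of the lowest, against 14.0% of all, so both ends held more element sites than the whole. With the same split among sites at or above the median level, the shares were 7.48% at both ends and 6.00% over all sites of that level.

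Promoter motifs were searched on both strands in the 250 bases before the start, for 1237 sites matched to a RefSeq promoter. GGGCGG was in 80.5% of them, with 32.7% of all 32851 promoters, and in 71.0% of those among the 10% of sites with the highest ratio and 83.7% among the 10% with the lowest. CCAAT was in 48.7%, with 33.8% of all promoters, CACGTG in 20.3% with 6.02%, and CCGGAAG in 16.3% with 6.91%. TGACGTCA was in 3.72%, with 1.55% of all promoters, and in 8 of 124 promoters at the high end and 1 of 123 at the low end. The median ratio was −0.06 at 46 sites with TGACGTCA (interval −0.22 to 0.17) and −0.16 at those without, which lies within that interval. TATAAA, GCATGCGC and the heat shock trimer, 3 alternating units, were in 5.50%, 6.71% and 0.889%, with 12.4%, 2.26% and 0.466% of all promoters, and all medians with a motif lay between −0.20 and −0.06. No 2 of these words contain each other, though any may overlap in a promoter.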

How the data were processed

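CUT&Tag libraries of Halo-H2DBD and Halo-HSF2 in Hsf2-/- cells were compared in mitosis. The authors used Bowtie2 to align reads to mm10 and kept duplicates, and the coverage signal was scaled by Drosophila spike-in reads, averaged over 2 libraries and deposited as a mean over each site. The deposited signal holds no counts. The authors list read totals per library, which differ and are not used here, and the counts behind a site are not known, so no test across libraries was made. The methods speak of setting the asynchronous sample to 1, but the scaling values the authors list for these asynchronous libraries are not 1.

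The log2 ratio was computed without a pseudocount. Medians have binomial order-statistic intervals, shares have Wilson intervals and correlations Fisher z intervals. Gene starts came from GENCODE M21 basic, sequence from GRCm38 and promoters from RefSeq (GRCm38.p6). The work was done in Python 3.11.15 with scipy 1.17.1, pandas 2.3.3 and numpy 2.4.6, and drawn with matplotlib 3.10.9. The calculations were tested on simulated data.

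Named genes were, among sites at or above the median of the mean of both signals, the 10 highest and 10 lowest ratios at coding starts and the 4 highest and 4 lowest elsewhere. Added to these were the 4 strongest sites of each chaperone list, the highest and lowest of the other lists and the 5 strongest sites of each construct. Other names were chosen after their values were seen. The members and lists were chosen with earlier results of these data known.

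Alternatives were pseudocounts of 0.1 and 1, a minimum level, other centrings, merged or repeated intervals, summed signals, linear values, ranks, no top 1% of sites, anti-HSF2 for the full-length protein, and other definitions of starts, elements and overlaps. IgG, the HA control, knockout cells without a construct and mixed cells were not used here. The values of a further gene of the lists and of a further array are not reported here.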

Additional observations from a re-analysis of the deposited data

How the results depend on the processing

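Of 94 alternative values, 65 stayed within the interval of the reported value. Of all 94, 12 fell on the other side of 0, and in 1 of these the reported interval excluded 0. The cause was not tested for any change. The median ratio was −0.11 with 1 added to both signals, −0.27 for the summed signals and −0.43 with anti-HSF2 for the full-length protein.

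Sites 2-fold above the median site were 1.45% with no centring, 1.78% with 0.1 added, 0.047% with 1 added and 1.50% at a mean signal of at least 1. Sites 2-fold below were 4.78%, 1.97%, 0.047% and 1.87% in the same order, and 2.30% centred on the quartile of weakest sites. With 1 added, a weak site can hardly pass 2-fold by construction.

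The correlation of levels, 0.867 as reported, was 0.985 on linear values, 0.920 with 1 added, 0.827 without the top 1% of sites and 0.850 for ranks. Against the full-length signal by anti-HSF2, which is not counted among the alternatives above, r was 0.638 and rho 0.558. The share of sites on the same side of both phases' medians was 51.5% at or above the median level.

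Relative to the median of all sites, the class without a coding start changed from −0.052 to 0.039 by anti-HSF2. The element class, at −0.10 as reported, was at −0.016 with 2 units, −0.014 with 1 mismatch allowed, −0.23 with 4 units, −0.031 with 1 added, −0.041 at or above the median level and −0.0024 by anti-HSF2. HSF1 overlap moved to 0.22 and SOX2 overlap to 0.25 by anti-HSF2, and SOX2 overlap to −0.086 where it covered most of the site. Among the lists, HSP70 and HSP110 genes were at 0.71, chaperonins at 0.74 and small RNA genes at 0.29 by anti-HSF2. Of 42 list values, 39 stayed within the intervals, which are wide. By anti-HSF2, 8 of 14 list medians kept their side of the median of all sites, with 1 added 14 did, and at or above the median level 12 did. At that level the lists hold fewer sites, with Hsph1 alone for HSP70 and HSP110 and Cct7 alone for chaperonins.

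No paired analysis was possible because the deposited columns are averages over both libraries of a condition. For the same reason, leaving out a library and the replicate block were not run. The counts behind each site are not known from these values, which limits every single site, and weak sites most. Scaling of a whole track, background common to all constructs, expression level of the constructs and the mitotic purity of each culture cannot be told apart from a difference between the proteins in the median ratio. The sites were called for endogenous HSF2, so binding of the constructs elsewhere was not measured.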
